A study of Mus musculus with 4 samples.

Results

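In mouse forelimb buds, 603 tiled regions carried high H3K27me3 together with weak RING1B. They were found among 19196 autosomal regions with a value for both antibodies (24078 tiled regions in all), and they made up 3.14% of the regions with both values. H3K27me3 is trimethylated lysine 27 of histone H3, and RING1B is the ubiquitin ligase of Polycomb repressive complex 1. The study measured both by chromatin immunoprecipitation on tiling arrays. The material was pooled whole forelimb buds of wild type BDF1 embryos at E10.5, with no treatment and no mutant group, so every value describes a mixture of limb bud cell types. The buds were fixed for 20 min in 1% formaldehyde, and precipitate and input DNA were amplified by a double round of T7 transcription before labelling. Precipitates with the antibody 07-449 (H3K27me3) and with clone #3 (RING1B) were each put on 2 arrays, numbered 1 and 2. The probes of these numbers shared 0 names and 0 coordinates, so each region was measured once per antibody, without replicates and without a test.

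A value here is the log2 ratio of the Cy5 over the Cy3 signal of a probe, after the median of the array was taken off. A region is a run of probes with starts at most 1000 bp apart, and its top window is the highest mean of 3 neighbouring probes that were well above background in both dyes. The 603 regions were selected on 2 measured values, an H3K27me3 top window of at least 7.21-fold (the H3K27me3 limit) and a RING1B top window under 2.83-fold, which is 1.5 on the log2 scale (the RING1B limit). The first limit was met by 3032 regions (15.8%) and the second by 82.5%. The high H3K27me3 and the low RING1B therefore describe how the regions were chosen and are no finding. The labels put the precipitate in Cy3 and the input in Cy5. All values below are Cy5 over Cy3 and run against those labels. Were the labels right, each sign would be the opposite, and with Cy3 over Cy5 the limits were met by 51 regions. "High" and "weak" below refer to Cy5 over Cy3 and are enrichment only where Cy5 was the precipitate.

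Polycomb repressive complex 2 writes H3K27me3, and complex 1 ubiquitinates histone H2A. Complex 1 in its canonical form is held at marked chromatin by CBX proteins that bind H3K27me3, while variant forms with RYBP or YAF2 can reach CpG-rich promoters without the mark. Both complexes keep developmental regulator genes silent, among them Hox genes, whose staged activation patterns the limb bud. The deposited files carry coordinates without gene names or a genome build, so regions are given by position and no gene was assigned here.

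The label of the group restates the limits, so the values that the limits used cannot test it and are given as a description. Among the 603 regions the H3K27me3 top window had a median of 3.45 (quartiles 3.14 and 3.98) and reached 5.60. The RING1B top window had a median of 1.16 (quartiles 0.92 and 1.33), which was above the 0.74 of all regions with both values. RING1B reached 1 in 408 of the 603 regions, against 36.8% of all regions, and was under 0 in 4, against 19.5%. H3K27me3 reached 4 in 146 regions and 5 in 18, against 10.2% and 4.22% of all regions. These counts use the measures that the limits cut off, and nothing is read from them. Weak here stands for a low value beside the mark, not for none. The scatter of top windows shows the group as one end of a continuous cloud with no gap at either limit.

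**Figure D1:**
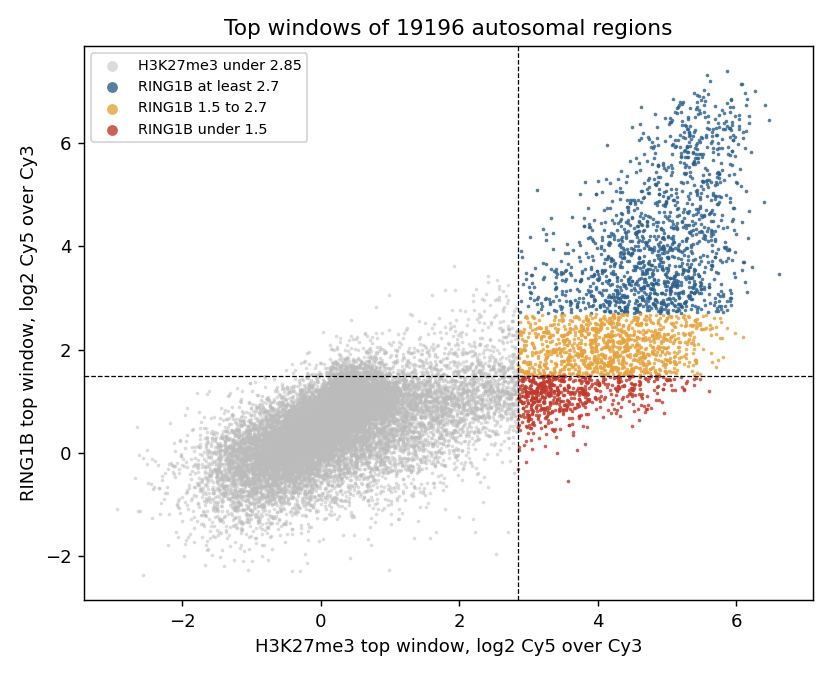
Each point is an autosomal region, with the H3K27me3 top window on the horizontal axis and the RING1B top window on the vertical axis, both as log2 Cy5 over Cy3. Dashed lines mark the 2 limits, and the 603 regions lie to the right of the first and under the second, with a median of 3.45 and 1.16.

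The regions nearest to each limit differed little from those left out in the measure that the limit used, which follows from how they were picked. Just inside the H3K27me3 limit, and equal to it at 2 decimals, lay 25332451 to 25338861, 4132563 to 4137787 and 122075655 to 122077135 on chromosome 7. Just outside it, also equal to it at 2 decimals, lay 60181597 to 60185709 on chromosome 2 and 167597159 to 167602781 on chromosome 1. At the RING1B limit, 155185505 to 155189915 on chromosome 1, 21845694 to 21852029 on chromosome 9 and 58911794 to 58919494 on chromosome 19 lay inside at 1.5 when rounded. Just outside, also at 1.5, lay 7330429 to 7338087 on chromosome 19, 25295772 to 25309257 on chromosome 17 and 135228911 to 135234730 on chromosome 5. In the other measure these regions were not alike. Their H3K27me3 top windows were 4.49, 4.89 and 3.19 inside the RING1B limit and 2.90, 3.28 and 4.61 outside it. In all, 265 of the 603 regions (43.9%) had a RING1B top window less than 0.3 or so under the limit, against 9.44% of all regions. An H3K27me3 top window between the limit and 3.1 was found in 130 (21.6%), against 1.18% of all regions. Both shares use the measures that the limits cut off. The SD between the 3 probes of a top window had a median of 0.41 for either antibody.

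The array pairs contributed unequally. Array pair 1, with chromosomes 1 to 8 and part of 9, held 418 of the regions among 10106 with both values (4.14%). Array pair 2, with the rest of 9 and chromosomes 10 to 19, held 185 among 9090 (2.04%). As a share of the regions at or over the H3K27me3 limit this was 24.6% on array pair 1 and 13.9% on array pair 2, where 16.8% and 14.7% of all regions met that limit. The spread of the H3K27me3 ratios also differed, with an SD of 1.91 on array 1 and 1.68 on array 2. RING1B had an SD of 1.33 on array 1 and 1.41 on array 2. When array 2 was scaled to the SD of array 1 for each antibody (added after seeing the data), 730 regions met the limits, among them all 603. Whether this spread had a part in the difference was not tested. Array and chromosome cannot be told apart, except on chromosome 9, where 6 of 27 high regions on array 1 and 19 of 139 on array 2 were in the group. Per chromosome the share of high regions in the group ran from 8.57% on chromosome 13 (9 of 105) to 30.3% on chromosome 7 (77 of 254). Within array 1 the lowest share was 17.5% on chromosome 6 (30 of 171), and within array 2 the highest was 17.5% on chromosome 11 (41 of 234). These shares hold for Cy5 over Cy3. With Cy3 over Cy5 they were 32.5% (26 of 80) on array 1 and 34.2% (25 of 73) on array 2, with 2 of 11 on chromosome 7 and 2 of 8 on chromosome 13.

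RING1B was then read at the H3K27me3 top window itself, a place that the RING1B limit did not choose. There the mean of the RING1B probes had a median of 0.70 (quartiles 0.25 and 1.07) over 602 regions, and 1 region had no RING1B probe left in that window. The median was 0.34 over all regions with both values, 1.75 in the 1037 regions with high H3K27me3 and RING1B from 1.5 to 2.7 (intermediate), and 3.65 in the 1392 regions with RING1B of at least 2.7 (strong). Between the arrays it differed little, at 0.72 on array 1 and 0.67 on array 2. RING1B in this window was at least 1, or 2-fold, in 186 of 602 regions, against 23.7% of all regions. It was under 0 in 84, against 36.9%. It was above the median RING1B value of its own region in 460 (76.4%), a share like the background of 76.5%. RING1B thus stood above the rest of its region there about as often as in regions at large. The share was higher in the other high classes, at 94.1% of intermediate and 97.6% of strong regions. Since the ceiling caps RING1B anywhere in the region, these values are bounded from above by the choice of the regions.

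The distance between the peaks of the antibodies was not itself used to choose the regions, and it is given without a test. It is not independent of the choice, because the RING1B limits that define the classes bound the height of the RING1B peak whose place it uses. The centres of the top windows were a median of 633 bp apart in the group (quartiles 222 and 1175 bp), 337 bp in the intermediate and 191 bp in the strong regions. They lay within 500 bp of each other in 258 of 603 regions (42.8%), in 58.7% of intermediate and in 66.4% of strong regions. Among all regions the share was 57.3%, but those were shorter, with a median of 5013 bp against 6842 bp. The windows lay over 1000 bp apart in 186 regions of the group (30.8%), near the 28.2% of all regions. Along the probes of a region, H3K27me3 and RING1B correlated with a median r of 0.36 over 550 regions with at least 10 shared probes. The median r was 0.62 in intermediate, 0.80 in strong and 0.47 in regions under the limit. These correlations are a description, because neighbouring probes overlap in the fragments they report and the ceiling narrows the range of RING1B.

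Around the H3K27me3 top window the mark fell off steeply and RING1B fell from an already low level. Within 250 bp the median probe was 3.55 for H3K27me3 (1488 probes) and 0.70 for RING1B (1405 probes). At 1000 to 2000 bp these medians were 1.90 and 0.28, and at 3000 to 4000 bp 0.73 and -0.10. In strong regions H3K27me3 went from 4.95 to 2.68 over the same distances and RING1B from 3.76 to 1.09. Intermediate regions lay between, at 1.21 for H3K27me3 and 0.01 for RING1B at that distance. Seen from the RING1B top window of the group, RING1B went from a median of 1.08 in the nearest 250 bp down to -0.13 at 3000 to 4000 bp, while H3K27me3 stood at 2.75 within 250 bp of it.

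**Figure D2:**
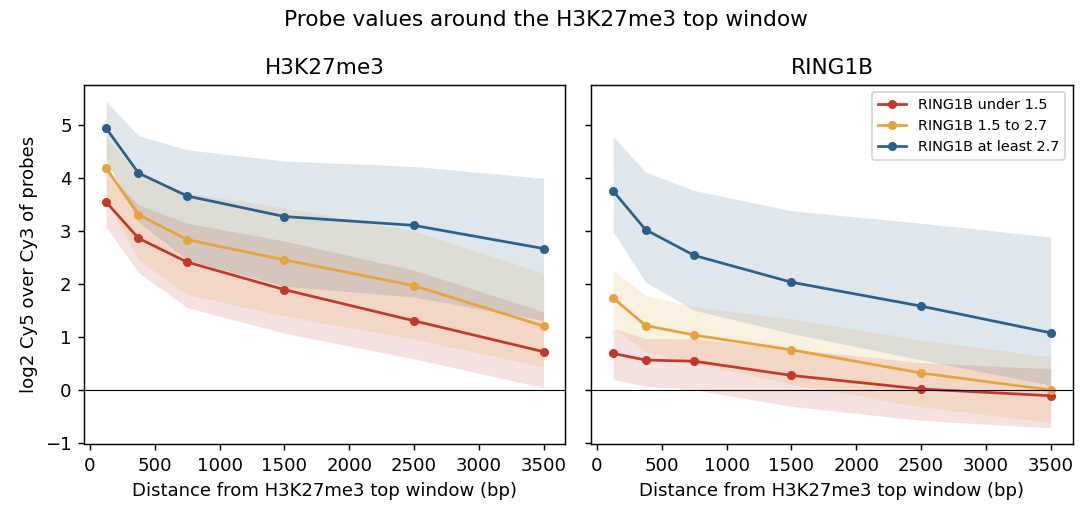
Median log2 Cy5 over Cy3 of probes against distance in bp from the H3K27me3 top window, with quartiles shaded, for H3K27me3 (left) and RING1B (right). In the regions with RING1B under 1.5 the H3K27me3 median falls from 3.55 to 0.73 and the RING1B median from 0.70 to -0.10.

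The marked stretches of the group were short, and their length went with the height of the mark. A median of 20.0% of the windows of a region reached the H3K27me3 limit (quartiles 9.38% and 42.6%), against 35.3% in intermediate and 60.0% in strong regions. The longest unbroken stretch at or over the limit had a median of 1058 bp, against 1748 bp and 2505 bp. In 113 regions (18.7%) only 1 window reached the limit, against 0.948% of all, 5.59% of intermediate and 0.790% of strong regions. In 118 (19.6%) at least 50% of the windows did, against 6.90% of all, 32.3% of intermediate and 62.6% of strong regions. All regions include those under the limit, where no window reaches it. When regions of like H3K27me3 height were set side by side, the median stretches lay nearer to each other than without such matching. The group's stretch was under that of strong regions in each of the 5 bins. The median share of windows was not. It was 8.70% in the group against 8.22% in strong regions from the limit to 3.3, and 21.9% against 21.4% from 3.3 to 3.8. From 3.8 up the group's share was the lower one in each bin, as with 32.4% against 37.8% from 3.8 to 4.3 and 65.9% against 74.2% from 4.8 up. For top windows from the limit to 3.3 the median stretch was 681 bp in the group, 615 bp in intermediate and 689 bp in strong regions. From 3.3 to 3.8 it was 1116 bp, 1157 bp and 1287 bp, and from 3.8 to 4.3 it was 1574 bp, 1677 bp and 1675 bp. From 4.3 to 4.8 it was 2056 bp, 2255 bp and 2167 bp. From 4.8 up it was 2837 bp in 37 regions of the group, 3201 bp in intermediate and 3700 bp in strong regions. The group's share of all high regions fell along the same bins, from 57.6% (239 of 415) to 38.4%, 17.2%, 11.1% and 3.52% (37 of 1050). Within the group, RING1B in the H3K27me3 window had medians of 0.54, 0.72, 0.72, 0.92 and 1.16 from the lowest to the highest bin.

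**Figure D3:**
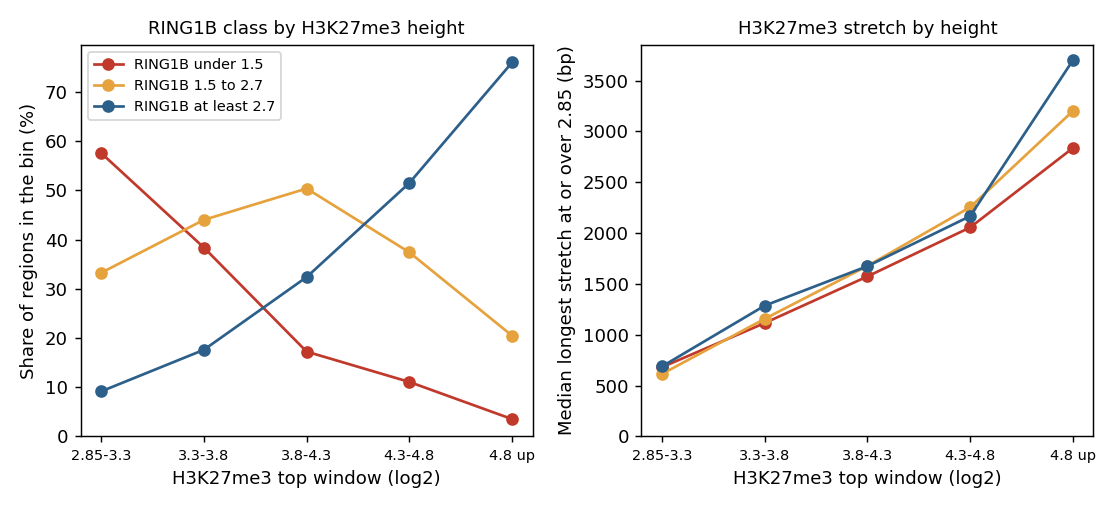
For bins of the H3K27me3 top window (log2), the left panel plots the share of regions in each RING1B class in percent and the right panel the median longest stretch at or over the H3K27me3 limit in bp. The share with RING1B under 1.5 falls from 57.6% to 3.52%, while in the lowest bin the 3 classes have stretches of 681, 615 and 689 bp.

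The strongest marks of the group were all on array 1. The highest H3K27me3 top window was 5.60 ± 0.08 (SD over 3 probes), in 35994003 to 35998746 on chromosome 5. Its probes read 5.58, 5.69 and 5.53 for H3K27me3 and 0.98, 1.34 and 1.28 for RING1B, a gap of 4.40 log2 units between the means. With loess the gap was 1.41. In this region 69.2% of the windows reached the H3K27me3 limit. A near neighbour on the same chromosome, 36069790 to 36077302, ranked ninth of the group with 5.24 ± 0.38 and a RING1B mean of 0.56 ± 0.68 over the same probes. The second highest, 129639042 to 129645362 on chromosome 4, had 5.47 ± 0.44 against 0.65 ± 0.81, and its RING1B probes scattered from -0.11 to 1.51. In 25212613 to 25231506 on chromosome 2, a long region with 88 probes, H3K27me3 reached 5.39 ± 0.93 and RING1B 0.85 ± 0.77. In 31498833 to 31506636 on chromosome 3 H3K27me3 reached 5.12 ± 0.31 and RING1B 0.07 ± 0.42, the lowest RING1B value among the 12 highest marks. Its RING1B probes read -0.35, 0.06 and 0.50 where the H3K27me3 probes read 4.77, 5.29 and 5.30. The gap of 5.05 between the means became 1.78 with loess. In 152717988 to 152725793 on chromosome 2 the values were 5.21 ± 0.22 and 0.73 ± 0.63.

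In other regions among the 12 highest marks RING1B was read from fewer probes, because dim probes had been left out. In 139741324 to 139748807 on chromosome 7 (H3K27me3 5.39 ± 0.51), 181241644 to 181251637 on chromosome 2 (5.29 ± 0.46) and 114091452 to 114099342 on chromosome 6 (5.28 ± 0.60), 1 RING1B probe remained in the H3K27me3 window. It read 0.92, 1.15 and 1.64. In 68545067 to 68549724 on chromosome 8 (5.42 ± 0.44), 127230399 to 127235794 on chromosome 2 (5.24 ± 0.40) and 157601075 to 157608579 on chromosome 2 (5.22 ± 0.07) 2 probes remained, with means of 1.45, 1.54 and 1.12. With every probe kept, 8 of the 12 exceeded the RING1B limit, and 7 did when 1 bright dye was enough to keep a probe. These settings also moved the array median, which by itself raised RING1B on array 1 by 0.099 and 0.072. With every probe kept, the region on chromosome 8 rose by that shift alone, from a RING1B top window of 1.46 to 1.56. So did that from 25212613 on chromosome 2, from 1.43 to 1.53. The region on chromosome 7 rose to a RING1B top window of 2.14, and that on chromosome 6 to 1.93. The regions on chromosome 5, that on chromosome 3 and that from 157601075 on chromosome 2 stayed under 1.5 in both settings, with RING1B top windows of 1.30, 1.36, 1.46 and 1.37 with every probe kept.

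Dim RING1B probes were left out in other regions of the group too. In the H3K27me3 top windows 99 of 1254 probes on array 1 and 28 of 555 on array 2 had no RING1B value. Of these probes, 82 and 21 were dim in Cy3, and 21 and 7 in Cy5. All 3 RING1B probes remained in 490 of 603 regions (81.3%), against 81.3% of all, 85.9% of intermediate and 92.2% of strong regions. The arrays differed, so the equal pooled shares hold for neither array alone. On array 1 the share was 79.2% in the group against 83.3% of all regions, and on array 2 it was 85.9% against 79.1%. Over the whole group, 211 regions passed the RING1B limit with every probe kept and 189 when 1 bright dye was enough. Both counts hold the shift of the array median as well as the added probes, and the parts were not separated. No probe of these windows was saturated in either dye. The scanner software's own error of a log ratio, put on the log2 scale, had a median in these windows of 0.24 (RING1B) and 0.40 (H3K27me3), the same at 2 decimals on arrays 1 and 2.

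The dyes taken singly are given as a description. Their ratios chose the regions, classes and windows, so a difference between classes follows from the choice. On array 1 the log2 Cy5 signal of the RING1B array in the H3K27me3 top windows had a median of 10.1 in the group, 11.2 in intermediate and 13.3 in strong regions, against 9.68 for all kept probes. The Cy3 signal of the same probes was 9.39, 9.41 and 9.57, against 9.75. Array 2 gave 10.2, 11.3 and 13.6 for Cy5 and 9.62, 9.63 and 9.79 for Cy3. The classes of RING1B thus differed in Cy5 and hardly in Cy3. On the H3K27me3 arrays, Cy5 in the group was 13.7 and 13.5 on arrays 1 and 2, against 10.3 for all kept probes of either. Cy3 was 9.90 and 9.82, lower than the 10.3 and 10.2 of all kept probes.

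On array 2 the highest marks were lower. In 115786477 to 115793511 on chromosome 11 H3K27me3 reached 4.70 ± 0.64 and RING1B 1.42 ± 0.61 in the same window, a RING1B value close to the limit. The region 18255376 to 18264192 on chromosome 16 had 4.62 ± 0.31 and 1.08 ± 0.36. Close behind, 69672344 to 69676678 on chromosome 11 had 4.61 ± 0.48 and 0.75 ± 0.58. In the chromosome 16 region 24.3% of windows reached the H3K27me3 limit, with the top window toward one end of the tiled stretch.

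**Figure D4:**
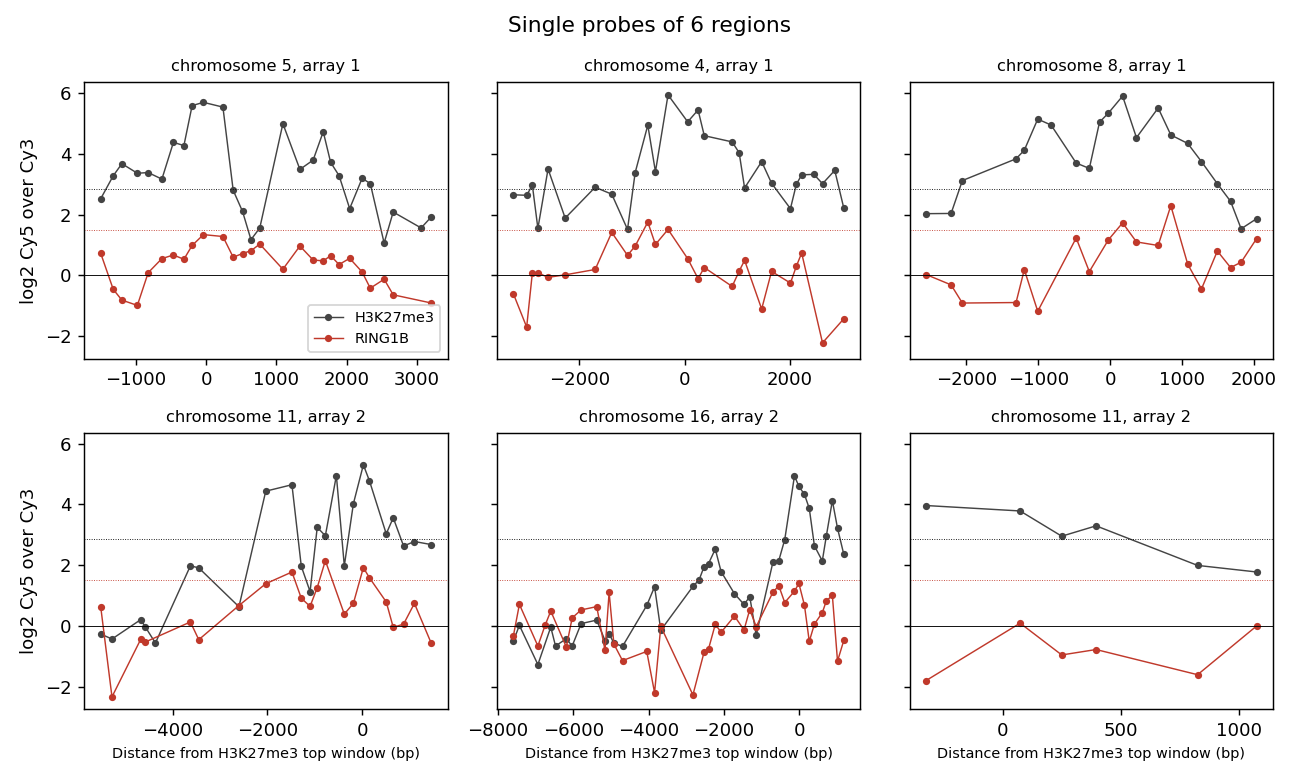
Log2 Cy5 over Cy3 of single kept probes against distance in bp from the H3K27me3 top window, for the 3 highest marks of array 1, the 2 highest of array 2 and the region with the lowest RING1B top window. Dotted lines mark the 2 limits, and in each panel H3K27me3 (dark) lies above RING1B (red) at the window, at 5.60 against 1.20 in the first.

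The regions with the lowest RING1B top windows were fragments of tiling. The lowest, -0.54 ± 0.56, was in 32200970 to 32202416 on chromosome 11, where H3K27me3 reached 3.57 ± 0.54 over 6 probes. Its RING1B probes in the H3K27me3 window read -1.79, 0.09 and -0.95. Next came 122075655 to 122077135 on chromosome 7 at -0.30 ± 0.97 with 5 probes and 126666860 to 126667389 on chromosome 4 at -0.18 ± 0.28 with 4 probes. The other regions of the 6 lowest, 3756231 to 3758309 on chromosome 7, 128780781 to 128782684 on chromosome 8 and 120578043 to 120579266 on chromosome 11, had 9, 7 and 6 probes. The 45 regions of the group with under 10 probes had a median RING1B top window of 0.77 against 1.18 in the other 558. In the H3K27me3 window, where no highest RING1B value was taken, the medians were 0.69 and 0.70.

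The lowest RING1B values in the H3K27me3 window came partly from longer regions. In 45571450 to 45578946 on chromosome 16, with 41 probes, RING1B there was -1.09 ± 0.30 over 2 probes against 3.52 ± 0.44 for H3K27me3, although the RING1B top window, just under the limit, lay 855 bp away. The gap of 4.62 between the antibodies became 1.38 with normexp and 3.64 with loess. In 116922459 to 116930293 on chromosome 12 the values were -1.02 ± 1.08 and 3.12 ± 0.96. In 89533963 to 89539221 on chromosome 9 they were -0.79 ± 0.56 and 3.35 ± 0.65. In 16830987 to 16834333 on chromosome 12 they were -0.78 ± 1.55 and 3.00 ± 0.65, with RING1B probes from -2.17 to 0.89. In 146053755 to 146061209 on chromosome 3 RING1B was -0.74 ± 0.05, with its 3 probes at -0.79, -0.70 and -0.72, and H3K27me3 was 3.92 ± 0.47. This last region had the tightest RING1B reading of the 6.

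In some regions H3K27me3 covered the whole tiled stretch. Among regions with at least 10 windows, all windows reached the H3K27me3 limit in 4 regions, and their RING1B values stood between 0.66 and 0.95 in the H3K27me3 top window. The region 139931846 to 139934870 on chromosome 7 had an H3K27me3 top window of 5.04 ± 0.37 and a RING1B mean of 0.95 ± 0.52 in it. For 164099005 to 164101883 on chromosome 2 these were 4.73 ± 0.42 and 0.92 ± 1.10, with RING1B probes from -0.13 to 2.07. For 4223528 to 4228493 on chromosome 8 they were 4.63 ± 0.22 and 0.66 ± 0.30 (2 RING1B probes), and for 155185505 to 155189915 on chromosome 1 they were 4.49 ± 0.26 and 0.95 ± 0.33. Next came 113158795 to 113164330 on chromosome 6 with 95.2% of its windows and 20618022 to 20621494 on chromosome 9 with 92.3%. The stretch on chromosome 1 was the longest of these, at 4411 bp. The region from 164099005 lay 1728 bp from a region with an H3K27me3 top window of 5.83 and a RING1B top window of 4.08. The nearest region to that on chromosome 1 was 57604 bp away, with 0.75 for H3K27me3 and 0.89 for RING1B.

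Neighbouring regions were not used to choose the group, and they carried more H3K27me3 than neighbours in general. The nearest other region of the same array within 100 kb existed for 535 of the 603 regions. Its H3K27me3 top window had a median of 0.89 (quartiles 0.25 and 2.64), against 0.27 around all regions, 0.79 around intermediate and 1.06 around strong regions. Its RING1B top window had a median of 0.76 against 0.57 around all regions, 0.71 around intermediate and 0.87 around strong regions. The nearest region was itself at or over the H3K27me3 limit in 122 of 535 cases (22.8%), against 11.7% of all regions, 18.4% of intermediate and 25.7% of strong regions. The excess of H3K27me3 was greatest at short distance. Where the neighbour lay within 2 kb (212 regions) its median was 1.27, and at 20 to 100 kb (170 regions) it was 0.64, against 0.17 and 0.41 around all regions.

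High regions of every RING1B class lay near the group. At least 1 other high region lay within 20 kb of 127 of the 603 regions (21.1%), against 11.3% of all regions, 13.4% of intermediate and 14.2% of strong regions. The nearest region of any kind was also closer to the group, at a median of 9397 bp, than to intermediate (20425 bp) and strong regions (39564 bp). Over all regions that median was 3740 bp. Whether this spacing had a part in the shares was not tested. Strong regions lay within 20 kb of 52 (8.62%, background 4.16%), against 4.53% of intermediate and 8.26% of strong regions. Intermediate ones lay within 20 kb of 55 (9.12%, background 4.61%), against 4.82% of intermediate and 3.88% of strong regions. For any high region the share was 22.2% on array 1 and 18.4% on array 2. A strong region lay within 2 kb of 31 of the 603 regions (5.14%, against 1.29% of all), and within 100 kb of 137 (22.7%, background 17.2%). Regions within 2 kb of each other are set apart by a gap in the probes. The 52 regions beside a strong one were short, with a median length of 2669 bp against 7089 bp in the other 551. H3K27me3 and RING1B were alike in both subsets, with 3.34 and 0.65 in the H3K27me3 window beside a strong region and 3.46 and 0.71 elsewhere. No high region lay within 100 kb of 286 regions (47.4%), whose values were 3.43 and 0.70.

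**Figure D5:**
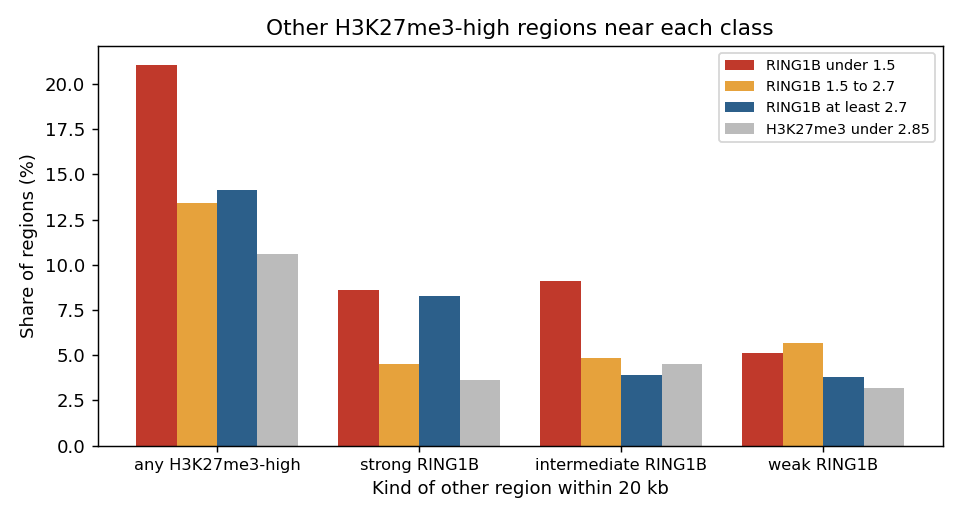
Share in percent of regions of each class with another high H3K27me3 region within 20 kb, by the RING1B class of that other region. Bars start at 0, and in the first set the regions with RING1B under 1.5 stand at 21.1%, intermediate at 13.4%, strong at 14.2% and those under the H3K27me3 limit at 10.6%.

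Another region of the group lay within 20 kb of 31 regions (5.14%), against 3.45% of all regions, and within 100 kb of 139 (23.1%), against 13.1%. A region of the group lay within 20 kb of 5.69% of intermediate and 3.81% of strong regions. The share within 20 kb was thus no higher in the group than in intermediate regions. Within 100 kb the shares were 19.3% of intermediate and 10.49% of strong regions. The group's own share within 20 kb was 0.897% with loess and 23.2% when regions were split at gaps of 500 bp. Joined at 20 kb the regions of the group formed 1 run of 3, 14 runs of 2 and 572 single regions. The run of 3 spanned 151662959 to 151690501 on chromosome 2 (27.5 kb), with H3K27me3 top windows of 3.42 ± 0.35, 3.66 ± 0.77 and 3.26 ± 1.00 and RING1B top windows of 1.49 ± 0.64, 1.06 ± 0.30 and 0.37 ± 0.26. The last of these held 5 probes. The run from 93175945 to 93199376 on chromosome 1 joined marks of 4.65 ± 0.89 and 3.79 ± 0.32, with RING1B in the H3K27me3 window at -0.03 ± 0.59 and 1.08 ± 0.87. Those from 151117493 to 151125372 on chromosome 4 and from 87790717 to 87801149 on chromosome 8 were pieces of tiling 1275 bp and 1543 bp apart. A further run, 132773153 to 132775980 on chromosome 4, held pieces of 5 and 4 probes beside a strong region whose top windows were 5.21 and 3.31.

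Many regions left the group under other processing. With normexp background correction 198 of the 603 regions met the limits again and 405 fell under the H3K27me3 limit. With loess 170 met them, 399 fell under the H3K27me3 limit and 34 passed the RING1B limit. In all, 730 regions met the limits with normexp and 223 with loess. The log2 limits were left unchanged although the ratios spread less. On array 1 the SD of H3K27me3 was 1.36 with normexp and 1.43 with loess, against 1.91. For RING1B it was 0.73 and 1.19, against 1.33. Whether this change of scale had a part in the losses was not tested. At the windows chosen in the first place, the H3K27me3 and RING1B medians were then 2.41 and 0.25 with normexp and 2.35 and 0.68 with loess. H3K27me3 was at least 1 log2 unit above RING1B in 541 of 602 regions with normexp and in 475 with loess. The choice of regions and windows fixes the direction of this gap, which is therefore no sign of stability. The antibodies have no common scale, so the gap is one of array ratios and no measure of relative occupancy.

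Across 9 alternatives of background, dye normalization, filter, window and centring, 38 of the 603 regions met the limits each time. Of these, 35 were on array 1 and 3 on array 2. All 9 were Cy5 over Cy3, so turning the dyes was not among them. The deposited value tables and the removal of outlier spots, both among the 9, by themselves kept 603 and 602 regions. The 38 regions had medians of 4.40 for H3K27me3 and 0.57 for RING1B in the H3K27me3 window, with 46.8% of windows at or over the H3K27me3 limit. The 3 with the highest mark were 36069790 to 36077302 on chromosome 5, 157601075 to 157608579 on chromosome 2 and 31498833 to 31506636 on chromosome 3, already described. The next highest was 125344799 to 125352331 on chromosome 8, where H3K27me3 reached 5.08 ± 0.33 and the RING1B probes of that window averaged 0.84 ± 0.13. After it came 25138738 to 25145051 on chromosome 2 with 4.95 ± 0.34 and a RING1B mean of 1.45 ± 0.30 over 2 probes. In 94561549 to 94566687 on chromosome 3, the sixth, H3K27me3 reached 4.77 ± 0.69 and RING1B 0.18 ± 0.13 over 2 probes. Leaving normexp and loess aside, 258 regions (42.8%) met the limits in the other 7 alternatives, 200 on array 1 and 58 on array 2, with medians of 3.60 and 0.61.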

How the data were processed

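Members and lists were chosen with earlier results of these data known. Per the file headers, the authors extracted 4 arrays with Agilent Feature Extraction 10.1.1.1, whose processed signals are intensity values with detrended background subtracted and a linear dye normalization, without lowess. The raw median intensity signals were deposited uncorrected. Per the file headers the deposited log10 columns hold each log ratio and its error. The authors' deposited value tables, in log2, held the same ratios within 0.001 for 99.7% to 99.9% of probes, matched by sorted probe name, uncentred, with medians from -0.16 to 0.018. The genome build was not given in the sources used here.

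The H3K27me3 limit was 2.85 and the RING1B limit 1.5 (log2). Ratios were centred on the median of 197574 to 203829 kept probes per array (83.3% to 85.9%), with no loess or quantile step. Outlier spots were kept, as the selection rule does not name them. The SD of neighbouring probes was 0.65 to 0.76. Precision is limited by 1 array per antibody and region. Regions named were the 12 highest marks, the 6 lowest by each RING1B measure, the 6 broadest, the 5 largest runs and regions at the limits. The 3 highest on array 2, the 38 regions that met the limits in all 9 alternatives and the 6 highest marks named among them (3 of which the rule also names) were chosen after values were seen. The gene lists could not be applied without gene names. Raw mean signals were not analysed here, so normexp used median signals. Python 3.11.15, pandas 2.3.3, R 4.3.3 and limma 3.58.1 were used. The region rule was run on simulated data with independent noise between probes, so that run does not measure errors in the real data.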

Additional observations from a re-analysis of the deposited data

How the results depend on the processing

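No paired analysis was possible because the arrays numbered 1 and 2 carry different probes and no result comes from a test. The 603 regions became 223 with loess, 51 as Cy3 over Cy5, 195 and 1075 with RING1B limits of 1.0 and 2.0, 285 with an H3K27me3 limit of 3.5, 947 with gaps of 500 bp, and 185 and 418 on a single array pair. The share of high regions in the group, 19.9%, became 38.9% with normexp, 11.9% with loess, 16.2% with every probe kept, 16.4% where 1 bright dye kept a probe, 22.8% with windows of 5 probes, 33.3% as Cy3 over Cy5, 6.43% and 35.5% with the RING1B limits, 11.7% with the H3K27me3 limit, 25.9% and 18.2% with gaps of 500 and 2000 bp, 22.8% with arrays scaled to one SD (added after seeing the data), and 13.9% to 24.6% on a single array pair. The share with another region of the group within 20 kb, 5.14%, became 8.08% with normexp, 0.897% with loess, 7.68% and 7.87% with the dim-probe settings, 7.59% with medians of 3 probes, 0% as Cy3 over Cy5, 9.12% with the RING1B limit of 2.0, 1.40% with the H3K27me3 limit of 3.5, 23.2% and 2.81% with the gaps, and 3.24% to 5.98% on a single array pair. The cause was not tested, except that limits and gaps change these counts by construction. RING1B in the H3K27me3 window, 0.70, became 0.30 with the RING1B limit of 1.0. The share of windows at or over the limit, 20.0%, became 6.67% with loess and as Cy3 over Cy5 and 40.0% with gaps of 500 bp. The neighbour's H3K27me3, 0.89, became 1.35 as Cy3 over Cy5 and 2.36 with gaps of 500 bp. The other alternatives moved these 3 medians by at most 1.5 times. Centring on the mode lowered H3K27me3 by 0.13 (log2), and keeping every probe raised it by 0.20 and 0.18 and RING1B by 0.099 and 0.12 on arrays 1 and 2. Over 43 named regions the gap between H3K27me3 and RING1B had a median of 3.86 (1.93 to 5.05), which became 1.77 (0.64 to 3.72) with loess and 2.95 (1.04 to 4.60) with normexp. It moved by over the combined SD of its probes in 37 and 16 of them.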

Other observations

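Chromosome X was outside the choice of regions. By the same limits, 40 of its 98 high regions (40.8%) had RING1B under 1.5, against 185 of 1334 (13.9%) on the autosomes of the same array. Of all X regions with both values these were 5.68%, against 2.04%. Their H3K27me3 top windows had a median of 3.08 and reached 3.74, lower than the 3.33 and 4.70 of the autosomal regions. RING1B in the same window was 0.45 against 0.67, and 11.4% of windows reached the H3K27me3 limit against 14.3%. Strong regions numbered 31 on X. All these values are Cy5 over Cy3. With Cy3 over Cy5, 0 of 704 X regions met the H3K27me3 limit, so there is no share, against 25 of 73 high regions (34.2%) on the autosomes of the same array.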
